A study of Drosophila melanogaster with 36 samples.

Results

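Small RNA features listed under an identifier of the form rr followed by digits, here called rr features, were described in the heads of old and young flies. They were taken from the deposited miRNA tables by that prefix alone, which gave 178 of the 673 listed features, beside 495 with a miRBase name. Each identifier ends in an arm, with 93 3p and 85 5p features from 120 locus identifiers, of which 58 had both arms listed. Several identifiers carried almost the same counts in every library, and once each such set of near-identical copies was counted once, 154 members remained.

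Whole heads of female w1118 flies were sampled at an age of 55 days (old) or 5 days (young), with 400 heads in each sample. Collections were made at zeitgeber time (ZT) 0, 4, 8, 12, 16 and 20, with 3 replicates of each age at each time, so that 36 libraries in 12 groups were compared, 18 per age. The strain w1118 carries a mutation of the white gene, which leaves the eyes without their normal pigment, and all groups shared it. RNA was extracted with TRIzol, and TruSeq libraries were made with an oligonucleotide that blocks the abundant 2S ribosomal RNA. The labels number the replicates without saying whether they came from separate cohorts of flies, so the p-values below measure the spread between these samples, which may be technical.

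A canonical animal miRNA is cut from a hairpin in a longer transcript, first by Drosha in the nucleus and then by Dicer in the cytoplasm. The cuts leave a short duplex whose strands are named 5p and 3p after the side of the hairpin they come from, and usually the strand that is loaded into Argonaute accumulates while its partner is lost. Candidate loci found by sequencing are often listed under provisional identifiers until a hairpin is accepted into miRBase, and strand balance is one of the properties by which such candidates are judged. The deposited tables give the rr features by identifier and count, and neither their sequences nor their genome positions were used here, so no hairpin, host gene or target is named.

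The miRNA tables held 16201310 to 23635828 counts per library in old heads and 19782202 to 30441735 in young heads. The tissue label was checked with marker miRNAs. The neuronal miR-124 arms together reached 462 to 686 CPM (counts per 1000000 of the scaled library size) in old heads and 297 to 625 CPM in young heads, and miR-210 and miR-7 of photoreceptors were abundant in every library. Of the libraries, 3 (old ZT0 replicate 1, young ZT4 replicate 3 and young ZT8 replicate 3) held 540 to 902 CPM of ovary miRNAs, against medians of 14.6 CPM in old and 19.7 CPM in young heads. In a further 2 libraries, miR-184-3p took 37.1% (old ZT0 replicate 3) and 45.3% (young ZT0 replicate 1) of the counts, against at most 13.6% and 18.6% in the other libraries of each age. The scaling answered with library sizes of 0.718 and 0.573 times the totals, which raises every CPM value there, so values without these libraries are given where a result rests on them. In samples of whole heads, a change in the number of cells of a type and a change in RNA per cell cannot be told apart.

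The copies were checked first, because they decide how often a signal is counted. Near-identical identifiers formed 17 sets that hold 41 of the 178 rr features, namely 15 pairs, a set of 5 and a set of 6. In 14 sets the values were equal in all 36 libraries. In 10 of these 14 every value was a whole number, and the same count stood in both entries. An equal division of reads between the entries would have left a fraction wherever the number of reads was odd, and no fraction was found in the 36 libraries. The identifiers of 14 of the 15 pairs also stood in a nearly fixed ratio, the smaller number being 0.78 to 0.80 times the larger. The set of 6 consists of 5p arms and includes rr817650-3a-5p, by which it is called below, and the set of 5 consists of 3p arms and includes rr817655-5b-3p. Both held fractional values in all 36 libraries, so for them the files do not tell whether a read was divided between the entries or given to each.

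The rr members were mostly scarce. Of the 154 members, 7 averaged at least 10 CPM over the 36 libraries, 17 lay between 1 and 10 CPM, and 55 were detected in every library. A total of 56 members (67 features) passed the filter on low counts and were tested, and the other 98 had a median of 45 counts summed over all libraries, with a range of 0.190 to 190. No member was at 0 in all libraries. The set of 6 alone supplied 66.4% of all rr counts, with copies counted once, and the 7 most abundant members supplied 89.7%. At a mean of 436 CPM the set of 6 ranked 66th among the 335 tested features of the tables, copies counted once, and the remaining 6 abundant members ranked from 113th to 151st.

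The rr features made up a larger share of the miRNA counts in old heads than in young heads, at every time of day. With copies counted once they took 0.102% ± 0.0174 of the counts in old heads and 0.0318% ± 0.00399 in young heads (SD, n = 18 each), a ratio of 3.20. The old libraries spanned 0.0768% to 0.135% and the young libraries 0.0272% to 0.0415%, so the ages did not overlap. The ratio was lowest at ZT0, with 0.0872% ± 0.00490 in old and 0.0325% ± 0.00335 in young heads (SD, n = 3 each). It was highest at ZT16, with 0.119% ± 0.0166 in old and 0.0299% ± 0.00266 in young heads (SD, n = 3 each). ZT0 holds both libraries rich in miR-184-3p, at 0.0912% in old and 0.0356% in young heads, and the ovary-rich old replicate 1, at 0.0818%. The other ZT0 libraries held 0.0887% in old heads and 0.0330% and 0.0290% in young heads. The ratio at ZT0 thus rests in part on libraries that stand apart. No test was made on this sum over members or on its differences between times.

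**Figure D1:**
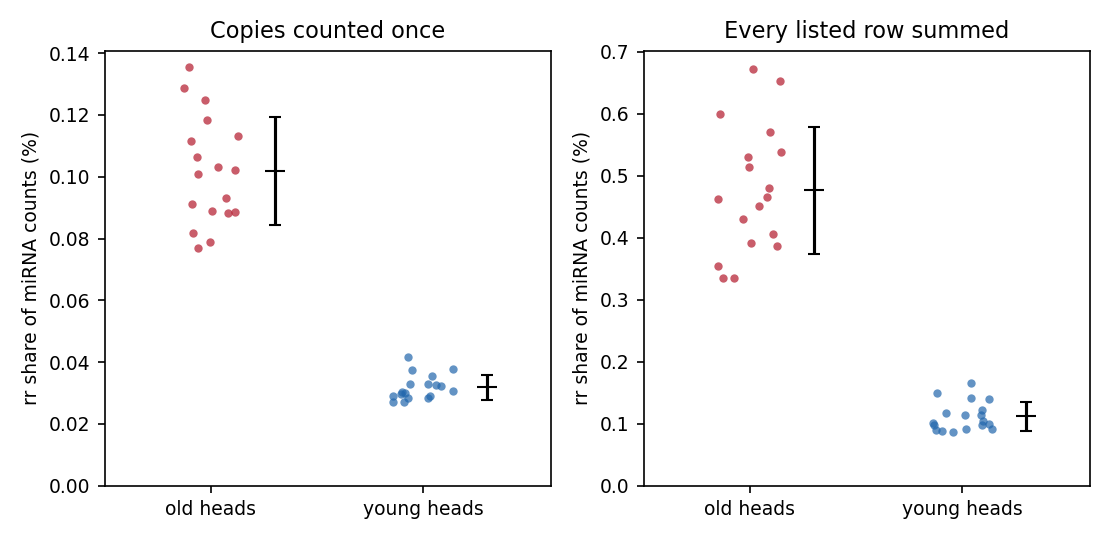
Share of miRNA counts taken by rr features in percent, 1 point per library, old heads left and young heads right in each panel, with the mean ± SD over 18 libraries beside the points. With copies counted once (left panel) the old libraries lie at 0.0768% to 0.135% and the young ones at 0.0272% to 0.0415%, and with every listed copy summed (right panel, different scale) the means are 0.476% and 0.112%.

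Most of that difference lay in the set of 6. Its count, taken from a single entry, was 0.0742% ± 0.0171 of the miRNA counts in old heads and 0.0158% ± 0.00398 in young heads (SD, n = 18 each), which is 4.69 times as much. Without it the other rr members took 0.0276% ± 0.00261 in old heads and 0.0160% ± 0.00100 in young heads, a ratio of 1.73, and these ranges again did not overlap. If every entry is summed, as would be right if reads were divided between copies, the share was 0.476% ± 0.103 in old heads and 0.112% ± 0.0237 in young heads. The 98 members under the filter took 0.000765% ± 9.17e-05 in old heads and 0.000696% ± 8.58e-05 in young heads, which differ by less than 1 SD. The miRNA counts were themselves 25.9% ± 2.03 of the larger read total behind the deposited piRNA values in old heads and 45.5% ± 3.02 in young heads. Of that larger total the rr members, counted once, took 0.0262% ± 0.00416 in old heads and 0.0144% ± 0.00205 in young heads, a ratio of 1.81.

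By member, age changed the rr features in both directions, with more rises than falls. With copies counted once, 33 of the 56 tested members passed an adjusted p of 0.05 in edgeR's quasi-likelihood test, which is 58.9% of them, against 58.8% of all tested features counted the same way. The rises were 23 of 56, against 26.6% of all tested features, and the falls were 10 of 56, against 32.2%. Counted by listed feature, 43 of 67 were called, 33 of them higher in old heads, against 61.4% called and 28.7% called higher in the table. The median log2 change of old over young was 0.33 over the 56 rr members and -0.09 over the 279 miRBase-named features. The split rests on the scale to which libraries are set. With library totals alone it was 32 higher and 8 lower, where the median log2 change of all features was 0.19. With the total behind the piRNA values as library size it was 11 higher and 26 lower, where that median was -0.62 and the median of the rr members was -0.27.

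Marker miRNAs of other cell types also had different medians in the ages, with ranges that overlapped and without a test. Every fixed marker was present and none was at 0. The 2 photoreceptor markers summed to a median of 29450 CPM in old heads (range 17957 to 33148) and 37378 CPM in young heads (27247 to 40400). The 2 muscle markers had 26918 CPM in old heads (21904 to 41079) and 37038 CPM in young heads (31440 to 67890). Markers of the early embryo had 18.4 CPM in old heads (14.9 to 24.2) and 10.2 CPM in young heads (7.83 to 23.9), and testis markers had 11.9 CPM in old heads (9.84 to 17.3) and 9.73 CPM in young heads (7.22 to 12.0). Their part in the age changes of the rr members was not tested.

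The filter on low counts bears on the number of calls, since a member could pass it through a single age. Of the 56 tested members, 40 reached the filter level of 0.443 CPM in at least 3 libraries of each age, and of these 17 were called higher, 6 lower and 17 were not called. A further 9 reached it in at least 3 libraries of old heads alone and 5 of young heads alone. Among these, 4 had no young library and 3 no old library at that level, and all of these 4 and 3 were called, in the direction that the filter favours. Among the 24 members with a mean of 1 CPM or more, 15 were called higher and 4 lower, and among the 32 scarcer ones 8 were called higher and 6 lower. Changes over 2-fold were called in 16 of the 56 rr members, against 10.7% of all tested features counted once. Under 1 CPM they were 8 of 32, beside 11 of 67 miRBase-named features. At 1 CPM or more they were 8 of 24, beside 9 of 212. Members that passed the filter through a single age, and entries related to the set of 6, are among the 16. By arm, 10 of 20 tested 5p members were called higher and 1 lower, and 13 of 36 3p members were called higher and 9 lower. Over all tested features counted once, without regard to arm, 26.6% were called higher and 32.2% lower, and no share by arm was counted. Related entries of the set of 6 are among the rises of both arms. The difference between the arms was not tested.

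**Figure D2:**
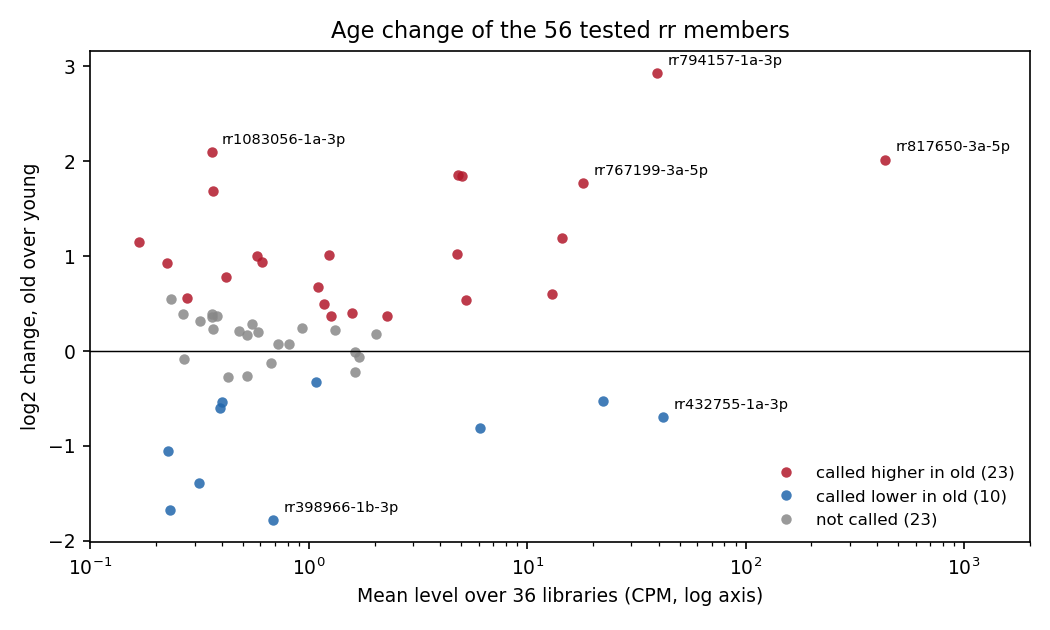
Log2 change of old over young heads for the 56 tested rr members against their mean level over 36 libraries (CPM, log axis), 1 point per member with copies counted once. Points above 0 are higher in old heads: 23 members were called higher (red), 10 lower (blue) and 23 were not called (grey), and the largest rise, rr794157-1a-3p at 2.93, is also among the 3 most abundant.

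The largest rise of all 335 tested features was that of rr794157-1a-3p. It ranged from 40.0 through a median of 68.5 to 95.1 CPM in old heads, and from 6.54 through 8.92 to 14.4 CPM in young heads. The highest young value came from the library rich in miR-184-3p. Every old library lay far above every young one. The means were 69.6 ± 13.8 CPM in old and 9.17 ± 1.64 CPM in young heads (SD, n = 18 each), a log2 change of 2.93 (SE 0.0975, adjusted p = 7.32e-23, edgeR). The change lay between 2.75 and 3.23 at each of the 6 times, and the replicate series gave the same picture, with means of 69.9, 65.4 and 73.6 CPM in the 3 old series and 9.59, 9.10 and 8.82 CPM in the 3 young series.

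The set of 6 copies rose too, at a far higher level. It ranged from 467 through a median of 676 to 993 CPM in old heads, and from 116 through 150 to 398 CPM in young heads, without overlap. The log2 change was 2.01 (SE 0.152, adjusted p = 1.80e-13, edgeR), with values from 1.52 at ZT0 to 2.49 at ZT16. The highest library of each age was the one rich in miR-184-3p. In CPM on the unscaled total of miRNA counts, these libraries held 713 in old and 228 in young heads, inside the ranges of 504 to 1066 and 116 to 247 in the other libraries of each age. Without these 2 libraries and the 3 rich in ovary miRNAs, the log2 change was 2.01.

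**Figure D3:**
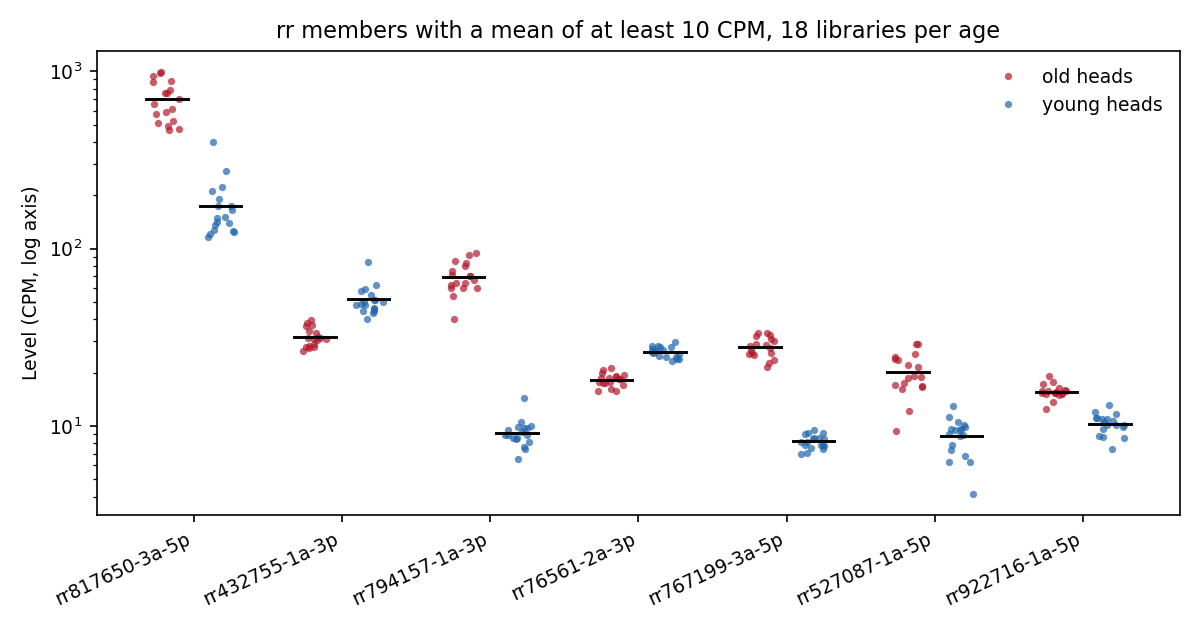
Level of the 7 rr members with a mean of at least 10 CPM (CPM, log axis), 1 point per library with old heads left (red) and young heads right (blue) of each pair, and a bar at the mean of 18 libraries. For rr817650-3a-5p (the set of 6), rr794157-1a-3p and rr767199-3a-5p every old library lies above every young one, and for rr432755-1a-3p and rr76561-2a-3p every old library lies below on this scale.

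A further 3 of the 7 abundant members rose. rr767199-3a-5p averaged 27.9 ± 3.65 CPM in old and 8.19 ± 0.739 CPM in young heads (SD, n = 18 each). Its lowest old library held 21.5 CPM and its highest young library 9.53 CPM, so the ages again did not overlap, with a log2 change of 1.77 (SE 0.0600, adjusted p = 7.32e-23, edgeR). Its spread was small, with a coefficient of variation of 13.1% in old and 9.03% in young heads. rr527087-1a-5p averaged 20.1 ± 5.33 CPM in old and 8.81 ± 2.08 CPM in young heads (SD, n = 18 each), a log2 change of 1.19 (adjusted p = 2.36e-09, edgeR), and the ages overlapped. Its level also differed between replicate series, with means of 15.8, 20.8 and 23.7 CPM in the old series and 6.90, 9.01 and 10.5 CPM in the young series. rr922716-1a-5p had the smallest rise of the group, with 15.7 ± 1.44 CPM in old and 10.3 ± 1.38 CPM in young heads (SD, n = 18 each), a log2 change of 0.60. On the larger read total behind the piRNA values this log2 change was -0.024.

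The remaining 2 abundant members fell, and in scaled CPM all old libraries lay below all young ones. rr432755-1a-3p ranged from 26.4 through 31.2 to 39.7 CPM in old heads and from 40.4 through 49.1 to 84.6 CPM in young heads, a log2 change of -0.69 (SE 0.0715, adjusted p = 3.22e-10, edgeR). The extremes nearly touched, and both the highest old and the highest young value came from the libraries rich in miR-184-3p. rr76561-2a-3p ranged from 15.7 through 18.4 to 21.3 CPM in old heads and from 23.4 through 26.3 to 29.6 CPM in young heads, a log2 change of -0.52 (SE 0.0446, adjusted p = 4.07e-12, edgeR). It was the steadiest of the 7, with a coefficient of variation of 8.56% in old and 6.89% in young heads. Both falls kept their sign at all 6 times. On the unscaled total of miRNA counts the ages overlapped for both. rr432755-1a-3p then ranged from 28.5 to 42.8 in old and from 39.7 to 56.8 in young heads, and rr76561-2a-3p ranged from 11.6 to 22.2 in old and from 14.6 to 28.4 in young heads, in counts per 1000000.

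Complete separation of the ages was found for 6 members with all old libraries above all young ones, against 2.69% of all tested features counted once, and for 3 with all old libraries below, against 4.78%. Besides the 5 abundant ones named above these were the 3p set of 5, rr817650-3a-3p, the scarce rr903317-1a-3p and, among the falls, rr72502-1d-3p. The 3p set of 5 held 1.01 to 1.17 times the count of rr817650-3a-3p in each library, with totals of 4058 and 3898, just outside the rule for copies. Since the set of 6 is the 5p side of these identifiers, related entries supplied 3 of the 6 separated rises. On the unscaled total of miRNA counts 5 of the 6 rises (not rr903317-1a-3p) and 0 of the 3 falls were still separated. rr72502-1d-3p averaged 4.39 ± 0.751 CPM in old and 7.75 ± 1.54 CPM in young heads (SD, n = 18 each), a log2 change of -0.81 (adjusted p = 2.51e-09, edgeR). rr903317-1a-3p ranged from 0.346 to 0.855 CPM in old heads and from 0.0477 to 0.314 CPM in young heads, where no library reached the filter level.

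Among the other members with a single direction at all 6 times, rr196830-1a-5p averaged 6.42 ± 1.25 CPM in old and 3.16 ± 0.655 CPM in young heads, and rr347030-1b-5p averaged 1.65 ± 0.660 CPM in old and 0.825 ± 0.402 CPM in young heads (SD, n = 18 each). Their log2 changes were 1.02 and 1.01. On the larger read total behind the piRNA values the change of rr347030-1b-5p was 0.38, with an adjusted p of 0.0624 (edgeR). rr1083056-1a-3p was scarce, with 1 to 22 counts per library in old heads and 0 to 7 in young heads, and its log2 change was 2.10 (adjusted p = 1.72e-07, edgeR). No young library reached the filter level, so it passed the filter through old heads alone. It had no count in 2 young libraries, ZT0 replicates 2 and 3, where 3 counts, the limit that a count of 0 allows, are 0.122 and 0.136 CPM. Such limits cover counting error only.

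The steepest falls were of scarce 3p members. rr398966-1b-3p averaged 0.299 ± 0.213 CPM in old and 1.08 ± 0.453 CPM in young heads (SD, n = 18 each), a log2 change of -1.78 (adjusted p = 4.13e-07, edgeR), and it lay lower in old heads at all 6 times although the ages overlapped. rr496920-1a-3p (log2 change -1.68) held 0 to 6 counts per library in old heads and 2 to 16 in young heads, and rr488204-1a-3p (-1.39) held 1 to 8 in old and 4 to 17 in young heads. Neither reached the filter level in any old library. rr23497-1a-5p, with 0.307 ± 0.120 CPM in old and 0.481 ± 0.257 CPM in young heads (SD, n = 18 each), fell by 0.60 on the log2 scale. It reached the filter level in 1 old and 7 young libraries, so it too passed the filter through young heads. Its highest young value, 1.41 CPM, came from the library rich in miR-184-3p, beside 0.408 and 0.409 CPM in the other young ZT0 replicates. Without the libraries rich in ovary miRNAs or miR-184-3p its log2 change was -0.62. Its call held in 14 of 15 alternatives. In all, 27 of the 33 called members kept 1 sign at all 6 times, 20 of them rises and 7 falls, beside 139 of 164 called miRBase-named features.

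Both arms could be followed at few loci. Counting each set of copies once, 50 loci had both arms listed and 46 of these had at least 100 counts over all libraries. The 5p arm held most of the counts at 14 of the 46 and the 3p arm at 32. The dominant arm held at least 90% at 34 loci, with a median of 95.6% and a lowest value of 50.7%, and it was the same arm in both ages at 42 of the 46. Thus most of the rr loci with both arms listed and at least 100 counts showed a strongly unequal pair of arms. The miRBase-named loci were not counted in this way, so no share stands beside it.

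At the locus of the set of 6 both arms rose with age by similar factors. Its 3p partner listed under the same identifier, rr817650-3a-3p, averaged 7.54 ± 1.02 CPM in old and 2.07 ± 0.403 CPM in young heads (SD, n = 18 each), a log2 change of 1.86 (adjusted p = 2.16e-19, edgeR) beside 2.01 for the 5p arm. The 5p arm was 92.5 times the 3p arm in old heads and 84.1 times in young heads. The 3p set of 5, at 7.83 ± 0.989 CPM in old and 2.18 ± 0.409 CPM in young heads, changed by 1.84. The 3p arms varied less between libraries of an age than the 5p set, with coefficients of variation of 13.6% in old and 19.5% in young heads for rr817650-3a-3p, against 25.8% and 39.9% for the set of 6. The young value of the set rests on 1 library, and without the library rich in miR-184-3p in each age the set had 24.8% in old and 26.4% in young heads, against 12.0% and 20.1% for rr817650-3a-3p.

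At other loci the arms were balanced differently. At rr76561-2a the 3p arm fell, as given above, and the 5p arm averaged 0.434 ± 0.140 CPM in old and 0.329 ± 0.118 CPM in young heads (SD, n = 18 each), a log2 change of 0.37 that was not called (adjusted p = 0.0611, edgeR). The difference between these arms was not tested. At rr645045-1a the arms were nearly equal, with 1.61 ± 0.526 CPM of 5p and 1.49 ± 0.375 CPM of 3p in old heads, and 1.64 ± 0.612 and 1.75 ± 0.408 CPM in young heads, and neither arm was called. rr622889-1a and rr105567-1a were tested on both arms too, with 5p to 3p ratios of 3.48 and 2.47 in old heads and 3.08 and 2.56 in young heads, and no arm of either was called.

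Time of day gave no call among the rr members. In young heads 0 of 56 passed the test of a 24 h rhythm in edgeR, against 5.07% of all tested features counted once. In old heads 0 of 56 passed, as did none of the other features. At an unadjusted p of 0.05, 2 rr members passed in young heads, against 10.7% of all tested features, and 2 passed in old heads, against 12.5%. DESeq2 and limma on the deposited RPM values also called 0 in either age. The smallest adjusted p was 0.284 in young heads, for rr641508-1a-5p, and 0.345 in old heads, for rr413031-1a-3p. The median fitted peak-to-trough difference over the 56 members was 0.35 on the log2 scale in old heads and 0.35 in young heads, beside 0.26 and 0.25 over the miRBase-named features, which are more abundant.

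The members with the smallest p were scarce ones. rr641508-1a-5p had group means between 0.330 CPM at ZT20 and 0.696 CPM at ZT12 in young heads, where the SD within a group reached 0.297 CPM. rr488204-1a-3p (unadjusted p = 0.0334 in young heads, edgeR) and rr413031-1a-3p (unadjusted p = 0.0201 in old heads, edgeR) likewise failed the adjustment. rr413031-1a-3p had its highest mean in old heads at ZT4, 0.934 ± 0.520 CPM, and its lowest at ZT16, 0.379 ± 0.140 CPM (SD, n = 3 each), with 1 library at 1.53 CPM setting the first. rr435322-1a-5p, the third in order in old heads, had an unadjusted p of 0.0553 (edgeR).

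The abundant members did not follow the clock by these tests either. The set of 6 had group means between 580 ± 72.0 CPM at ZT8 and 824 ± 190 CPM at ZT16 in old heads, and between 144 ± 29.4 CPM at ZT20 and 233 ± 145 CPM at ZT0 in young heads (SD, n = 3 each). The young maximum rests on the single library rich in miR-184-3p, at 398 CPM, beside 173 and 128 CPM in the other replicates of that time. The adjusted p of a rhythm was 0.830 in old and 0.559 in young heads (edgeR). rr794157-1a-3p varied between 59.9 ± 19.7 CPM at ZT12 and 75.5 ± 14.9 CPM at ZT16 in old heads, and between 8.00 ± 1.27 CPM at ZT20 and 10.6 ± 3.29 CPM at ZT0 in young heads (SD, n = 3 each), with differences between times inside the spread of replicates.

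**Figure D4:**
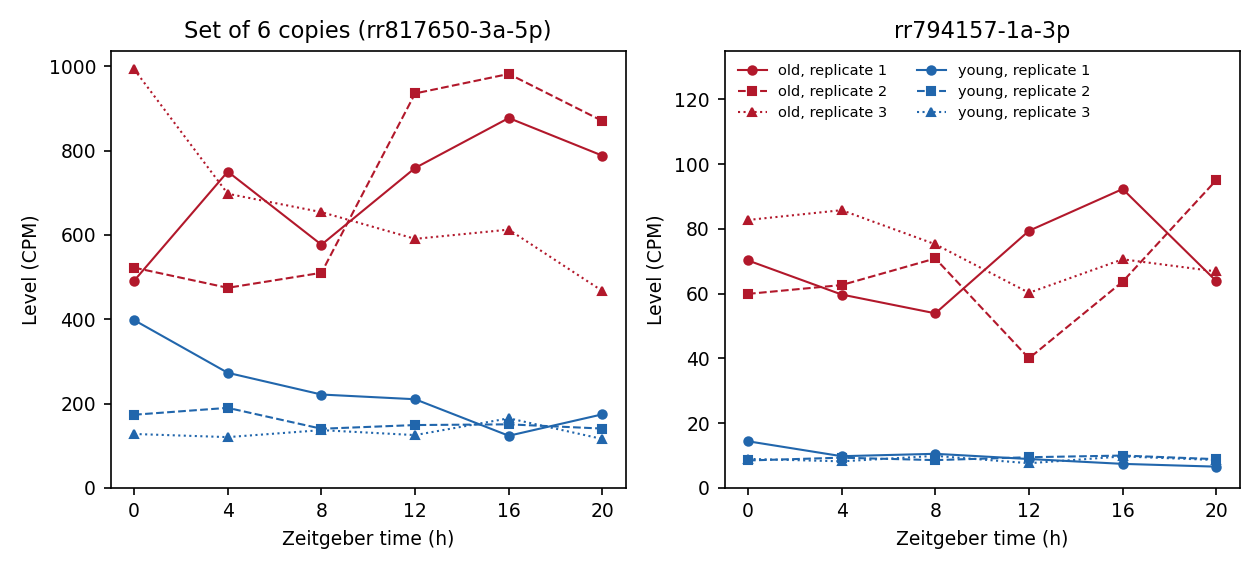
Level in each library (CPM, linear axis from 0) against zeitgeber time in hours for the set of 6 copies (left) and rr794157-1a-3p (right), old heads in red and young heads in blue, with 1 line per replicate number. The old lines lie above the young lines at all 6 times. In the left panel, old replicates 1 and 2 are highest at ZT16 (877 and 982 CPM), and old replicate 3 is highest at ZT0. The young point of 398 CPM and the old point of 993 CPM at ZT0 in the left panel are the libraries rich in miR-184-3p.

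The effect of age did not differ detectably with the time of day either. Neither the difference in rhythm between the ages nor the test of age by time point called any of the 56 members in edgeR, nor any other feature. At an unadjusted p of 0.05, 3 members passed the test of a different rhythm, against 10.1% of all tested features counted once, and 2 passed the test of age by time point, against 7.16%. DESeq2 and limma called 0 in both. The smallest p of both belonged to rr791723-1a-3p, which had an adjusted p of 0.174 for a different rhythm and 0.267 for age by time point (edgeR). This member was called lower in old heads (log2 change -1.06, adjusted p = 0.00255, edgeR), with 0 to 8 counts per library in old and 1 to 15 in young heads, but its mean was higher in old heads at 1 of the 6 times, ZT16. Its highest old library held 0.341 CPM, under the filter level of 0.443 CPM. It thus passed the filter through young heads alone, which favours a call in this direction. rr72502-1d-3p, one of the members whose ages did not overlap, had the second smallest p for a different rhythm (0.0137 unadjusted, 0.276 adjusted, edgeR), with log2 changes between -1.31 at ZT0 and -0.47 at ZT12.

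The rr members were set beside miRNAs that were catalogued late. In the range from miR-2279 to miR-3645, 6 of 14 tested features were called, 3 in each direction, with a median log2 change of -0.03. Among the miR-4900s and miR-9300s, 24 of 36 were called, 6 higher and 18 lower, with a median of -0.22. Under 1 CPM, 14 of 32 rr members were called, 8 higher and 6 lower, beside 28 of 67 miRBase-named features, 13 higher and 15 lower. At 1 CPM or more, 19 of 24 rr members were called, 15 of them higher, beside 136 of 212 miRBase-named features, 53 of them higher. These lists were compared by count only, without a test.

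In the 3 libraries rich in ovary miRNAs the rr share lay inside the range of the other libraries of the same age. In old ZT0 replicate 1 the rr share of miRNA counts was 0.0818%, against a median of 0.102% in the other old libraries. In young ZT4 replicate 3 and young ZT8 replicate 3 it was 0.0283% and 0.0304%, against a median of 0.0314% in the other young libraries. A single tested member, rr76561-2a-5p, lay above all other young libraries in both of the ovary-rich young libraries, at 0.502 and 0.525 CPM against at most 0.499 CPM elsewhere. In the ovary-rich old library 4 of the 56 tested members lay above all other old libraries, among them rr922716-1a-5p at 19.2 CPM against at most 17.6 CPM and rr105567-1a-5p at 1.21 against at most 0.828 CPM. Any library is the highest for some members, and the same counts were not made for other libraries or features. Neither count is therefore read as an excess. These members were picked after their values were seen, and the part of ovary RNA in them was not tested. Without the 3 libraries the log2 change of rr76561-2a-5p was 0.47 (adjusted p = 0.0191, edgeR), which passes the threshold. With the 2 libraries rich in miR-184-3p left out as well, it was 0.39 (adjusted p = 0.0594, edgeR), which does not. In a fit without a wider set of 6 libraries with an excess of ovary miRNAs, it was 0.56 (adjusted p = 0.00767, edgeR), which passes. Both ovary-rich young libraries belong to young replicate series 3. There rr76561-2a-5p averaged 0.453 CPM, beside 0.283 and 0.251 CPM in young series 1 and 2.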

How the data were processed

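The deposited miRNA tables give the authors' expected counts, which the file names call adjusted without a definition and which can hold fractions. The deposited RPM tables equal these counts per 1000000 miRNA counts of a library. The authors' piRNA tables of counts and RPM served only to recover the larger read total behind the piRNA RPM. Bowtie and the builds BDGP6 and dm6 are named in the submitters' processing notes, without versions. The aligner settings, the source of the rr identifiers and the sharing of reads between copies are not given in the sources used here. All 24 tables were used, and 0 value columns lacked a sample.

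Rounded counts entered edgeR 4.0.16 (R 4.3.3, statmod 1.5.0), with filterByExpr over the 12 groups (10 counts), TMM scaling and quasi-likelihood F tests on all 363 features that passed, of 673. Age was tested with time point as a factor, and rhythms with a cosine and a sine of 24 h nested in age. The p-values of each test were adjusted by Benjamini and Hochberg over the whole set of features that passed. CPM are counts per 1000000 of the TMM-scaled library size. Copies were identifiers whose log2(CPM + 0.1) correlated above 0.999, with totals within 2% and at least 5 counts. Alternatives used DESeq2 1.42.0, limma 3.58.1 on log2(RPM + 1) and log2(RPM + 0.1), other scalings, filters, blocks and left-out libraries. The steps were tested on simulated data. Values called whole lie within 1e-06 of a whole number.

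Members and lists were chosen with earlier results of these data known. Named were members of at least 10 CPM, the 10 largest called rises and falls with 1 sign at all 6 times, the 3 smallest p of each test of time of day, and loci with both arms tested.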

Additional observations from a re-analysis of the deposited data

How the results depend on the processing

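The count of rr members called higher in old heads (23) was 5 among features of at least 10 CPM and 11 with the total behind the piRNA RPM as library size, and it ranged from 21 to 25 with 1 of the 36 libraries left out. The count called lower (10) was 17 without a filter, 2 at 10 CPM and 26 on the piRNA RPM total, and 10 in each left-out library. It was 8 with library totals alone and with limma, and 9 with scaling from miRBase-named features alone. Of all listed features, 223 of 363 were called in either direction in the main fit. Without a filter 239 of 636 were called, at 10 CPM 117 of 167, and on the piRNA RPM total 279 of 363. Of the 33 calls, 19 held in every alternative and with every left-out library, 30 held with every left-out library, and 26 kept 1 sign in every alternative. The 4 tests of time of day called 0 members in each alternative, except that 0 to 1 young rhythm was called with a library left out (young ZT0 replicate 3). The share of miRNA counts was 0.0998% to 0.103% in old and 0.0312% to 0.0321% in young heads with a library left out, 0.0262% and 0.0144% of the piRNA RPM total, 0.0276% and 0.0160% without the set of 6, and 0.476% and 0.112% with every copy summed, a setting chosen after seeing the data. With the replicate number as a block the counts were 24 higher and 10 lower, with counts summed per replicate series they were 18 and 9, and with limma-voom and an estimated correlation within series of 0.13 they were 20 and 8. Same-numbered libraries deviated together weakly, with mean correlations of 0.04 within old, 0.17 within young and 0.05 across ages. Libraries of different numbers had -0.02, -0.09 and -0.03. Of the 3 numbers, 27 of 36 libraries correlated best with their own. The main fit did not use the numbers, and whether they mark samples handled together was not tested.

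The sign of 9 named members changed in at least 1 alternative. On the piRNA RPM total the median log2 change of all features was -0.62. There the log2 changes were -0.42 for rr413031-1a-3p, -0.22 for rr435322-1a-5p, -0.32 for rr641508-1a-5p, -0.25 for rr76561-2a-5p and, of a called member, -0.024 for rr922716-1a-5p. Which total is the better reference was not tested. With limma on log2(RPM + 1), limma on log2(RPM + 0.1) and unscaled totals the values were 0.022, 0.089 and 0.11 for rr105567-1a-3p, 0.025, 0.068 and 0.058 for rr105567-1a-5p, 0.084, 0.13 and 0.13 for rr622889-1a-5p and 0.11, 0.17 and 0.19 for rr645045-1a-5p. Scaling from miRBase-named features alone gave 0.015 for rr622889-1a-5p and 0.072 for rr645045-1a-5p, which was also 0.014 with RLE factors, 0.051 without a filter, 0.014 in DESeq2 and 0.0048 with copies summed. With a library left out, the ranges that cross 0 were -0.20 to 0.060 for rr105567-1a-3p, -0.13 to 0.0010 for rr622889-1a-5p and -0.081 to 0.033 for rr645045-1a-5p. The cause of these changes of sign was not tested.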

Other observations

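At 4 of the 46 loci with both arms and at least 100 counts, the arm with more counts was not the same in the 2 ages, and these loci were picked after their values were seen. The 5p arm held 68.1% of the counts in old heads and 49.4% in young heads at rr242803-1a, 30.2% and 57.4% at rr782755-1a, 46.3% and 58.1% at rr309853-1a, and 51.2% and 47.7% at rr645045-1a. The first 3 of these loci rest on few reads. Summed over 18 libraries per age, rr782755-1a had 19 counts of 5p and 44 of 3p in old heads, and 74 of 5p and 55 of 3p in young heads. No test was made, because the arms of these loci, apart from rr645045-1a, were under the filter on low counts.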
